A study of Rattus norvegicus with 8 samples.

Results

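Mitochondrial complex I was followed through its nuclear genes, which made up 49 of the 40994 gene rows of the deposited count table. Every protein-coding row was taken whose symbol is Nduf followed by a, b, c, s, v or af and a digit, or is Ndufab1. Of these rows, 41 were named as subunits and 8 were assembly factors, whose symbols begin with Ndufaf. The values come from bulk mRNA sequencing of H9c2 cells, an established line of myoblasts from rat heart, labelled in both groups as carrying no genetic modification and used at passage 6. One group of 4 libraries, numbered 2, 9, 16 and 23, was made after 6 h with 100 µg/ml OxPAPC, and the other 4, numbered 1, 8, 15 and 22, after vehicle, whose makeup the labels do not state. OxPAPC stands for the many compounds formed when a phosphatidylcholine with palmitic and arachidonic acid is oxidized. Since no label tells whether the libraries of a group stem from different cultures, the p-values reflect library-to-library spread only, which may be technical in part.

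Complex I takes electrons from NADH, passes them along a flavin and a row of iron-sulfur clusters to ubiquinone, and pumps protons across the inner mitochondrial membrane. Its matrix arm holds the NADH-oxidizing and the quinone-reducing module, and its membrane arm holds the proton pumps, whose core subunits are encoded in mitochondrial DNA. Nuclear genes supply the core subunits of the matrix arm, the accessory subunits around both arms, and assembly factors that help to build the complex and are not part of it when finished. Heart muscle is rich in this complex, and its NADH and quinone sites are known sources of superoxide.

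Total counts were 15.4 to 21.7 M per library, and all 8 libraries shared 1 batch date. Of 13206 genes tested with edgeR, 2369 were higher and 2164 lower in OxPAPC-treated cells at an adjusted p under 0.05. The label of myoblast was met by Myod1, Myog, Cdh15, Chrna1, Myh3, Mymk and Des, so that 7 of 10 myoblast markers had at least 10 counts in every library, while Myf5 and Pax7 had 1 and 2 counts over all 8. The label of heart tissue was met only in part, as 3 of 10 cardiomyocyte markers had at least 10 counts in every library. Over all 8 libraries Myh6 had 3 counts, Ryr2 3, Myh7 6, Nppa 7, Tnni3 33 and Myl2 46. The summed myoblast markers were at 518 to 546 CPM in OxPAPC libraries and at 601 to 628 CPM in vehicle libraries, where CPM is counts per M counts of the scaled library. Fibroblast markers, 7 of 8 of them above that count, summed to 87398 to 92279 CPM in OxPAPC libraries and 90345 to 94771 CPM in vehicle libraries. Smooth muscle markers, 6 of 6, summed to 6453 to 6754 CPM in OxPAPC libraries and 7993 to 8217 CPM in vehicle libraries. Endothelial markers reached 10 counts per library in 0 of 5 cases, with Cdh5 and Kdr at 0, and macrophage markers in 1 of 6, with Ptprc and Adgre1 at 0. Cardiomyocyte markers summed to 115 to 122 CPM in OxPAPC libraries and 129 to 151 CPM in vehicle libraries. Most of each sum was Tnnt2, which averaged 113 CPM in OxPAPC libraries and 128 CPM in vehicle libraries. Tnnt2 and Pln were both lower by the test, while Actn2 and Nkx2-5 did not pass it. Within the myoblast list Myog fell to 40.0 CPM in OxPAPC libraries, against 95.1 CPM in vehicle libraries, while Myod1 rose by 0.13 on the log2 scale. The myoblast, cardiomyocyte and smooth muscle sums moved with the treatment, and their part in the results for complex I was not tested. In bulk RNA, fewer cells of a type and less RNA per cell cannot be told apart.

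Among the nuclear complex I genes, 1 rose and 2 fell. Ndufaf4, an assembly factor of the quinone module, was higher in OxPAPC-treated cells, and the core subunit Ndufv2 and the accessory subunit Ndufa9 were lower by small amounts. Thus 3 of 46 tested members passed the test, or 6.52%, against 34.3% of all tested genes, of which 17.9% were higher and 16.4% lower. At an unadjusted p under 0.05 the counts were 10 of 46 members and 5606 of 13206 genes. The libraries of the groups did not overlap for 6 members, with all OxPAPC libraries above all vehicle libraries for Ndufaf4 and Ndufv3 and below them for Ndufv2, Ndufa9, Ndufs1 and Ndufs7, against 32.4% of all tested genes. With upper-quartile scaling 1 member rose and 9 fell, with DESeq2 1 rose and 1 fell, and without vehicle 1 none fell and 2 rose. The share of members called stayed below the share of all genes in each of the 19 alternatives, at 4.35% to 21.7% of members against 14.5% to 36.6% of genes.

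**Figure D1:**
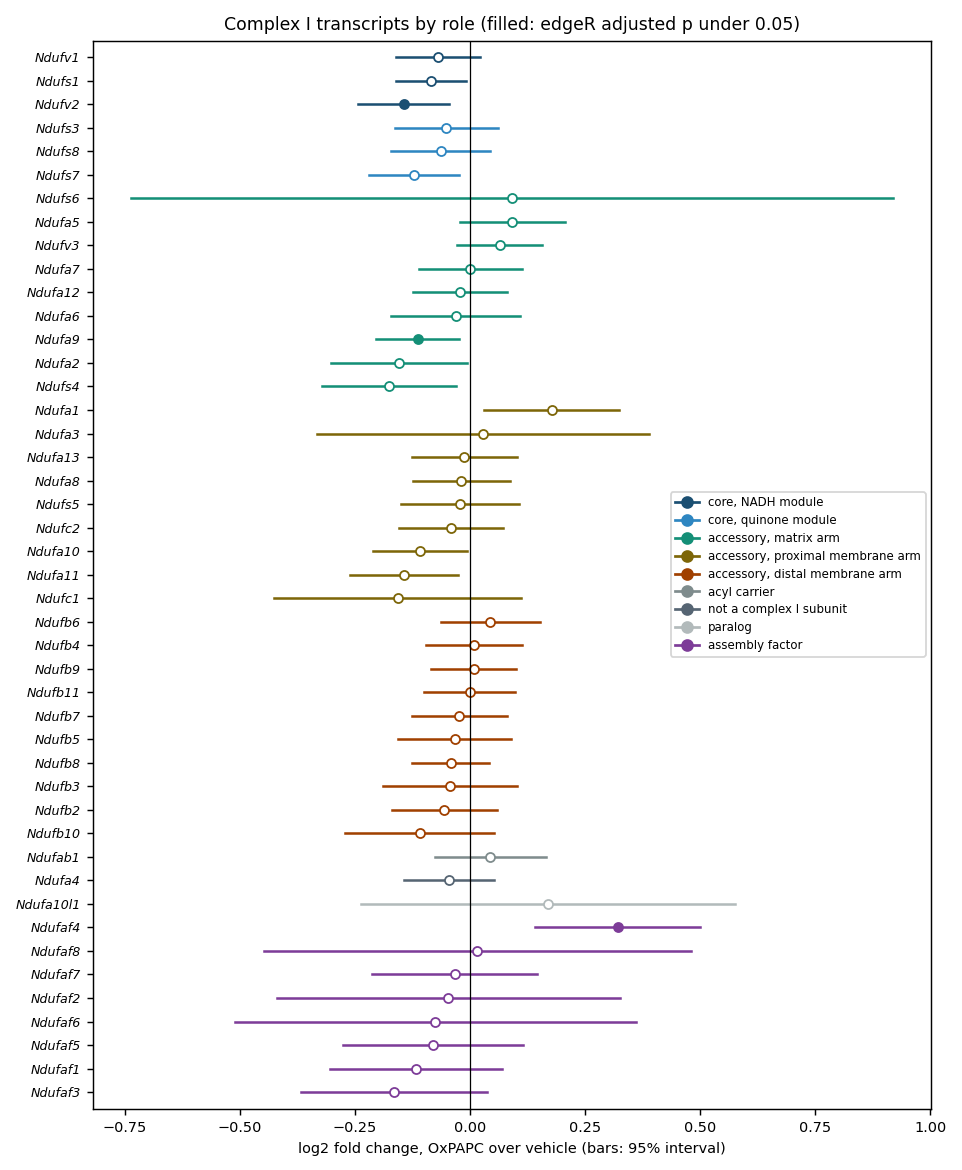
Log2 fold change of 45 of the tested members, OxPAPC over vehicle, with its 95% interval, ordered by role from the core subunits at the top to the assembly factors at the bottom. Filled points passed the test, and these are Ndufv2, Ndufa9 and Ndufaf4.

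The promoters of the 3 members that passed the test are shown because these are the genes on which a change was called. Each is the RefSeq sequence of the assembly GRCr8 over 250 bases before and 50 bases after the gene's start, on the gene's strand, with capitals marking the motifs found. The windows lie at chr5:43401545-43401844 on the plus strand for Ndufaf4, at chr9:113157471-113157770 on the minus strand for Ndufv2 and at chr4:161374121-161374420 on the minus strand for Ndufa9.
Ndufaf4: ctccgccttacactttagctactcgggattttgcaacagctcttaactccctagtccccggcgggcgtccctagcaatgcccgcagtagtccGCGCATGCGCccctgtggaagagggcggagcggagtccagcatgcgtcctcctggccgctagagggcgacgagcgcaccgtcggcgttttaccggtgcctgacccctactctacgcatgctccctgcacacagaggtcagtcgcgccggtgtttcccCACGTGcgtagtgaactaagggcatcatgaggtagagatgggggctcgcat
Ndufv2: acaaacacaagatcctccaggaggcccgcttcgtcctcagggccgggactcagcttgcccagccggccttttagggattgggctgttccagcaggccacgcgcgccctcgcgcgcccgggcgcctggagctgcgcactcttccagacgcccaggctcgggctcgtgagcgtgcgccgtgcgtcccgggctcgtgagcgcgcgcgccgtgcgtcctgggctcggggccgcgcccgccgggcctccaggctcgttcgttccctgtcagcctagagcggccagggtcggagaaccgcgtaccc
Ndufa9: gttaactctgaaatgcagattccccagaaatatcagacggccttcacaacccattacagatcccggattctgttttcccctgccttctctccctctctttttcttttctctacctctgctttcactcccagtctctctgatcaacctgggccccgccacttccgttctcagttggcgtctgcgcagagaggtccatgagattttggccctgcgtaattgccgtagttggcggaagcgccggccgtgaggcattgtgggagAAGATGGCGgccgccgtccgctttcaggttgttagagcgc
The search covered 5 motifs on both strands, which were GCATGCGC of NRF1, CCGGAAG of ETS factors, AAGATGGCG of YY1, the E-box CACGTG and the antioxidant response element TGACNNNGC. The Ndufaf4 window held the NRF1 letters on both strands, in overlapping matches that begin at positions -158 and -156 from the start, and the E-box across the start, beginning at -1. In the Ndufa9 window the YY1 letters began at position 11, counted from the start as 1, and the Ndufv2 window held none of the 5. RefSeq promoters were matched for 40 of the 46 tested members. Of these 40, the NRF1 letters were in 10%, the ETS letters in 22.5%, the YY1 letters in 17.5%, the E-box in 7.5% and the antioxidant response element in 15%. The same letters were in 3.23%, 11.2%, 2.29%, 7.27% and 12.7% of the 19005 promoters of protein-coding genes, in that order, and in 5.27%, 18.4%, 3.90%, 9.48% and 14.4% of the 10063 of them that belong to tested genes. Beside the tested genes, the members' shares were higher for NRF1 and YY1, a little higher for ETS, about level for the antioxidant response element and lower for the E-box, none of which was tested. A match is a description of the letters, and no binding was measured.

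The 7 nuclear core subunits had log2 fold changes between -0.14 and -0.05, with a median of -0.07. Of the 7, 1 passed the test, or 14.3%, against 34.3% of all tested genes. All 7 estimates were below 0 in each of the 19 alternatives as well, and the median was -0.11 with upper-quartile scaling, where that of all genes was -0.04. The alternatives reuse the same libraries, so the repeated sign is not independent evidence. Among all tested genes, 6557 of 13206 estimates were below 0 in the main test. In the NADH module, Ndufv2, which carries an iron-sulfur cluster (chr 9, bases 105690454 to 105710669 in the deposited table), had 45.0, 45.7, 44.0 and 44.2 CPM in OxPAPC libraries 2, 9, 16 and 23, against 51.8, 47.5, 49.7 and 48.8 CPM in vehicle libraries 1, 8, 15 and 22. Every OxPAPC library was below the lowest vehicle library, which was vehicle 8. Ndufv2 fell by 0.14 on the log2 scale, with an SE of 0.05 and an edgeR adjusted p of 0.0229. It no longer passed without OxPAPC 16 or without vehicle 1, where its adjusted p was at most 0.0808.

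Ndufs1, a large subunit that carries several iron-sulfur clusters, had 82.6, 82.3, 83.6 and 83.0 CPM in OxPAPC libraries and 89.4, 87.1, 88.2 and 86.9 CPM in vehicle libraries. The groups were apart, yet the difference was small, at -0.08 ± 0.04 (SE), and its adjusted p was 0.0775. Ndufv1, which binds NADH and the flavin, averaged 97.5 ± 5.43 CPM in OxPAPC libraries and 102 ± 4.67 CPM in vehicle libraries (SD, n = 4 each), with overlapping libraries and an adjusted p of 0.245.

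In the quinone module, Ndufs7, which carries the iron-sulfur cluster next to ubiquinone, lay nearest to the threshold of all members that missed it. Its levels were 48.6, 46.6, 50.9 and 49.4 CPM in OxPAPC libraries and 54.6, 52.7, 54.3 and 51.2 CPM in vehicle libraries. The groups did not overlap, although OxPAPC 16 came close to vehicle 22. The log2 fold change was -0.12 ± 0.05 (SE), with an adjusted p of 0.0509, and it passed in 12 of the 19 alternatives. Ndufs8, another iron-sulfur subunit, and Ndufs3 had log2 fold changes of -0.06 and -0.05, with adjusted p of 0.384 and 0.511. For each of the 7 core subunits the 95% interval lay within 1.25-fold in either direction, that is within 0.32 on the log2 scale.

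**Figure D2:**
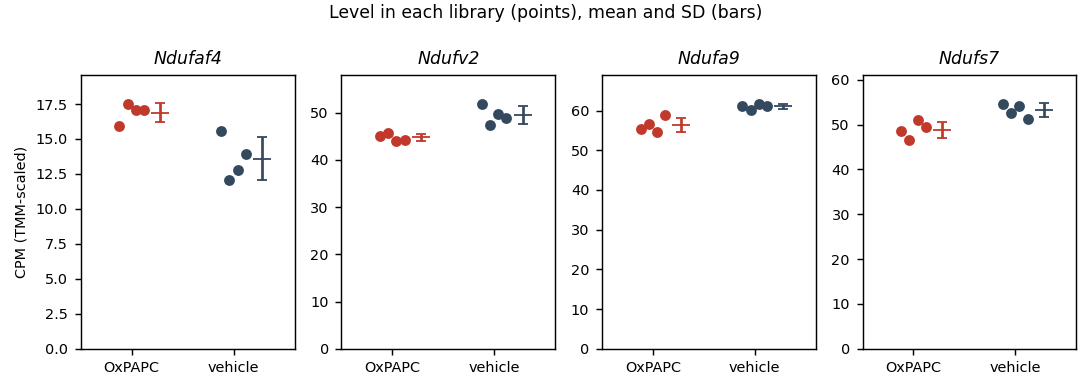
CPM of Ndufaf4, Ndufv2, Ndufa9 and Ndufs7 in each library, OxPAPC left and vehicle right in each panel, with axes that start at 0 and bars for mean and SD of 4 libraries. Ndufaf4 is higher in the OxPAPC libraries, while the other 3 lie lower there by small steps without overlap.

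Of the 9 accessory subunit rows of the matrix arm, 1 passed the test, or 11.1%, against 34.3% of all tested genes. Ndufa9 (chr 4, bases 159659242 to 159688034), which holds a bound nucleotide cofactor near the quinone site, had 55.3, 56.7, 54.7 and 58.8 CPM in OxPAPC libraries, against 61.3, 60.1, 61.7 and 61.2 CPM in vehicle libraries. OxPAPC 23 was the highest of its group and still below all vehicle libraries. Ndufa9 fell by 0.11 on the log2 scale, with an SE of 0.04 and an adjusted p of 0.0485, just under the threshold. It passed in 10 of the 19 alternatives and missed with DESeq2, with limma-voom and in each omission of a single library except that of OxPAPC 23, with adjusted p up to 0.127.

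Ndufs4, which helps to hold the NADH module in place, had the lowest estimate of all members. Its levels were 30.2, 29.0, 27.4 and 25.3 CPM in OxPAPC libraries and 34.4, 28.9, 33.5 and 29.3 CPM in vehicle libraries. The groups overlapped in OxPAPC 2 and 9 against vehicle 8 and 22, and the log2 fold change of -0.17 ± 0.07 (SE) had an adjusted p of 0.0573. Ndufa2, a small subunit with a thioredoxin-like fold, averaged 17.8 ± 0.834 CPM in OxPAPC libraries and 19.8 ± 0.953 CPM in vehicle libraries, with an adjusted p of 0.105. Ndufv3 showed the opposite order, at 54.2 to 56.0 CPM in OxPAPC libraries and 51.2 to 53.8 CPM in vehicle libraries. Its groups stood just apart at a log2 fold change of 0.06, and the adjusted p was 0.284. Ndufa5, Ndufa6, Ndufa7 and Ndufa12, which lie on the same arm, had estimates of 0.09, -0.03, 0.00 and -0.02, and none passed the test.

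The row named Ndufs6 does not hold the gene that RefSeq calls Ndufs6, an accessory subunit with a zinc site. In GRCr8 the identifier of that row, 29478 on chromosome 2, belongs to Ndufs6-ps1, a pseudogene, and it drew 122 counts over all 8 libraries. Its estimate of 0.09 came with a 95% interval of -0.74 to 0.92, so no change short of a large one was detectable there. RefSeq's Ndufs6 is identifier 679739 on chromosome 1, listed under another symbol and so outside the name rule. That row averaged 24.3 ± 2.23 CPM in OxPAPC libraries and 23.9 ± 2.37 CPM in vehicle libraries, and its log2 fold change of 0.03 ± 0.08 (SE) did not pass the test.

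None of the 9 accessory subunits of the proximal membrane arm passed the test, against 34.3% of all tested genes. The estimates of these 9 pointed both ways. Ndufa1, a small single-span subunit needed to build the membrane arm, had 44.3, 49.1, 47.4 and 41.01 CPM in OxPAPC libraries and 44.1, 40.9, 40.7 and 34.8 CPM in vehicle libraries. OxPAPC 23 fell among the vehicle libraries, and vehicle 22 was the lowest of the 8. The log2 fold change was 0.18 ± 0.07 (SE) with an adjusted p of 0.0576, and it passed without OxPAPC 23, without vehicle 1 and with no filter on low counts. Ndufa11, on the same arm, averaged 51.4 ± 4.41 CPM in OxPAPC libraries and 56.7 ± 2.37 CPM in vehicle libraries. Its log2 fold change was -0.14 ± 0.06 (SE) with an adjusted p of 0.0540. Ndufa10, a member of the nucleoside kinase family, had -0.11 ± 0.05 (SE) and an adjusted p of 0.0989. Ndufa13, also known as GRIM-19, was at 39.4 to 40.7 CPM in OxPAPC libraries and 36.5 to 43.2 CPM in vehicle libraries. Ndufa8, Ndufs5 and Ndufc2 had estimates between -0.04 and -0.02, and the less abundant Ndufa3 and Ndufc1 had 0.03 and -0.16 with SEs of 0.16 and 0.13. The per-library values of Ndufs4 and Ndufa1 are given because they marked the ends of the subunits' range, a choice made after their values were seen.

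The 10 Ndufb subunits surround the distal proton pumps, and none of them passed the test, against 34.3% of all tested genes. The log2 fold changes of the 10 ran between -0.11 for Ndufb10 and 0.04 for Ndufb6, and each 95% interval lay within 1.25-fold. Ndufb9, the most abundant member per length, had 96.8 to 112 CPM in OxPAPC libraries and 101 to 110 CPM in vehicle libraries. Its log2 fold change was 0.01 ± 0.04 (SE), which turned slightly negative under 9 of the 19 alternatives. Ndufb8, whose protein is often taken as a marker of assembled complex I, averaged 74.8 ± 1.65 CPM in OxPAPC libraries and 77.1 ± 2.45 CPM in vehicle libraries, with an adjusted p of 0.465. Ndufb4, Ndufb7 and Ndufb11 had estimates of 0.01, -0.02 and 0.00, and Ndufb2, Ndufb3 and Ndufb5 had -0.06, -0.04 and -0.03. Ndufb1 is annotated as a long noncoding RNA in the deposited table and is no member, and it averaged 9.83 ± 3.08 CPM in OxPAPC libraries and 10.0 ± 1.19 CPM in vehicle libraries.

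Some rows share the family name without being plain subunits. Ndufab1, the mitochondrial acyl carrier protein that sits in the complex and also serves fatty acid and lipoate synthesis, had a log2 fold change of 0.05 ± 0.06 (SE). Ndufa4, now counted with cytochrome c oxidase, averaged 97.2 ± 6.72 CPM in OxPAPC libraries and 100 ± 4.62 CPM in vehicle libraries, with a log2 fold change of -0.05. Ndufa10l1, whose name marks it as a relative of Ndufa10, averaged 4.48 ± 1.27 CPM in OxPAPC libraries and 3.97 ± 0.742 CPM in vehicle libraries. Ndufa4l2, a paralog of Ndufa4 known for its induction in low oxygen, had 18 counts over all 8 libraries, and Ndufa13-ps1 had 51, so neither passed the filter on low counts. Ndufb4l1-ps1 had 0 counts in every library and was not tested either.

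Of the 8 assembly factors, 1 passed the test, or 12.5%, against 34.3% of all tested genes. Of the subunit rows, 2 of 38 passed, or 5.26%. The log2 fold changes of the assembly factors lay between -0.165 and 0.321, against -0.175 and 0.178 for subunit rows. The upper end was set by Ndufaf4 alone, and the next highest assembly factor was Ndufaf8 at 0.02. Ndufaf4 (chr 5, bases 38605169 to 38610341), which in human cells binds Ndufaf3 and acts early in building the quinone module, had 15.9, 17.5, 17.05 and 17.1 CPM in OxPAPC libraries, against 15.6, 12.0, 12.8 and 14.0 CPM in vehicle libraries. All 4 OxPAPC libraries were above vehicle 1, the highest of its group, by a narrow margin for OxPAPC 2. Ndufaf4 averaged 16.9 ± 0.683 CPM in OxPAPC libraries and 13.6 ± 1.54 CPM in vehicle libraries (SD, n = 4 each). It rose by 0.32 on the log2 scale, with an SE of 0.09, a 95% interval of 0.14 to 0.50 and an edgeR adjusted p of 0.0057. The call was made in all 19 alternatives, with log2 fold changes of 0.26 to 0.39 and adjusted p of 0.00155 to 0.0423. The 6 other rows described as the same protein drew 14 counts in all, against 2174 for Ndufaf4.

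Its binding partner Ndufaf3 gave an estimate of the other sign. Ndufaf3 had 9.72, 10.7, 9.69 and 8.80 CPM in OxPAPC libraries and 12.0, 10.9, 10.7 and 10.0 CPM in vehicle libraries. The groups overlapped, and the log2 fold change of -0.17 ± 0.10 (SE) had an adjusted p of 0.207. Ndufaf3 shares 4 bases of its span with Impdh2 on the opposite strand, which was higher in OxPAPC libraries by 0.15 on the log2 scale.

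The enzymes among the assembly factors did not pass the test. Ndufaf5, which in human cells hydroxylates an arginine of Ndufs7, averaged 10.8 ± 0.400 CPM in OxPAPC libraries and 11.4 ± 1.11 CPM in vehicle libraries. Ndufaf8, which stabilizes Ndufaf5 in human cells, was at 5.73 to 7.53 CPM in OxPAPC libraries and 3.68 to 8.16 CPM in vehicle libraries, so the OxPAPC libraries lay inside the vehicle range. Ndufaf7, a protein methyltransferase, averaged 13.4 ± 1.32 CPM in OxPAPC libraries and 13.7 ± 0.363 CPM in vehicle libraries. Their log2 fold changes were -0.08, 0.02 and -0.03.

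Ndufaf1, which helps to assemble the membrane arm, had -0.12 ± 0.09 (SE) and an adjusted p of 0.355. Ndufaf2, a paralog of Ndufa12 that acts late in assembly, had -0.05 ± 0.18 (SE), and Ndufaf6, an early factor, had -0.08 ± 0.21 (SE). Both were low, at 4.89 ± 0.906 and 2.90 ± 0.339 CPM in OxPAPC libraries and at 5.07 ± 1.33 and 3.07 ± 1.03 CPM in vehicle libraries. The 95% intervals of Ndufaf2, Ndufaf6 and Ndufaf8 reached beyond 1.25-fold in both directions, so a change of that size was not detectable for these 3.

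Set side by side, subunit rows and assembly factors had median log2 fold changes of -0.04 and -0.06, against 0.00 over all tested genes. With upper-quartile scaling they were -0.07 and -0.10, against -0.04 over all genes, and without vehicle 1 the median of the assembly factors was -0.03. Estimates were below 0 for 27 of 38 subunit rows and for 6 of 8 assembly factors, against 6557 of 13206 genes. The median size of the log2 fold change, without its sign, was 0.05 for subunits and 0.08 for assembly factors, and 0.15 for all tested genes. The median SE was 0.05 for subunits, 0.10 for assembly factors and 0.07 for all tested genes. Intervals lay within 1.25-fold for 33 of the 38 subunit rows and 3 of the 8 assembly factors, and for 46.8% of all tested genes. In each of these comparisons the subunit rows include Ndufa4, Ndufa10l1 and the row named Ndufs6, and leave out RefSeq's Ndufs6. Members share libraries and are not replicates, so the difference between the classes was not tested.

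**Figure D3:**
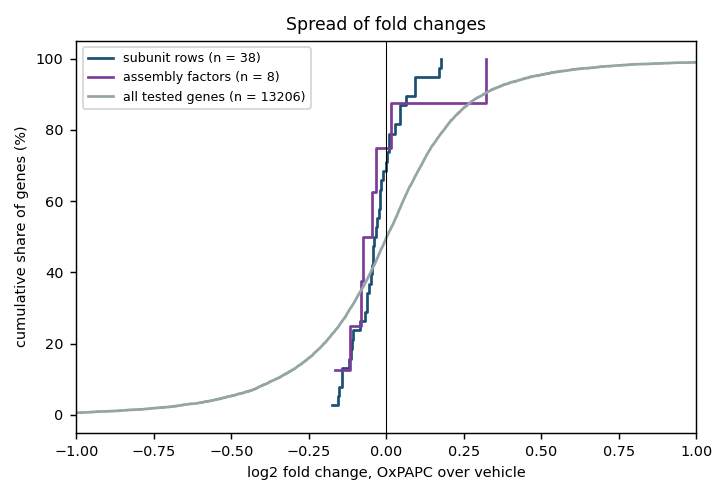
Cumulative share of genes by log2 fold change, OxPAPC over vehicle, for 38 subunit rows, 8 assembly factors and 13206 tested genes, with the horizontal axis cut at -1 and 1. Subunit rows run between -0.17 and 0.18, and Ndufaf4 is the single step of the assembly factors at 0.32.

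Levels between genes were compared per length, in the deposited FPKM (fragments per kb of gene per M). Tested subunit rows had a median of 54.0 FPKM and ran between 2.48 for the row named Ndufs6 and 166 for Ndufb9. Assembly factors had a median of 6.26 FPKM, between 0.595 for Ndufaf2 and 14.1 for Ndufaf8, and the median over all tested genes was 7.04. Thus, per length, the assembly factors lay near the typical gene and most subunits far above it. In CPM, which is not divided by length, the medians were 43.2 for subunit rows, 10.7 for assembly factors and 24.3 for all tested genes. Ndufb4 and Ndufa4 followed Ndufb9 at 129 and 126 FPKM, and their library ranges of 120 to 140 and 114 to 135 overlapped each other but not the 151 to 175 of Ndufb9. Ndufs8 was the lowest of the core subunits at 29.4 FPKM. Subunit transcripts were short, with a median length of 679 bases, against 1745 for assembly factors and 3319 for all tested genes.

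**Figure D4:**
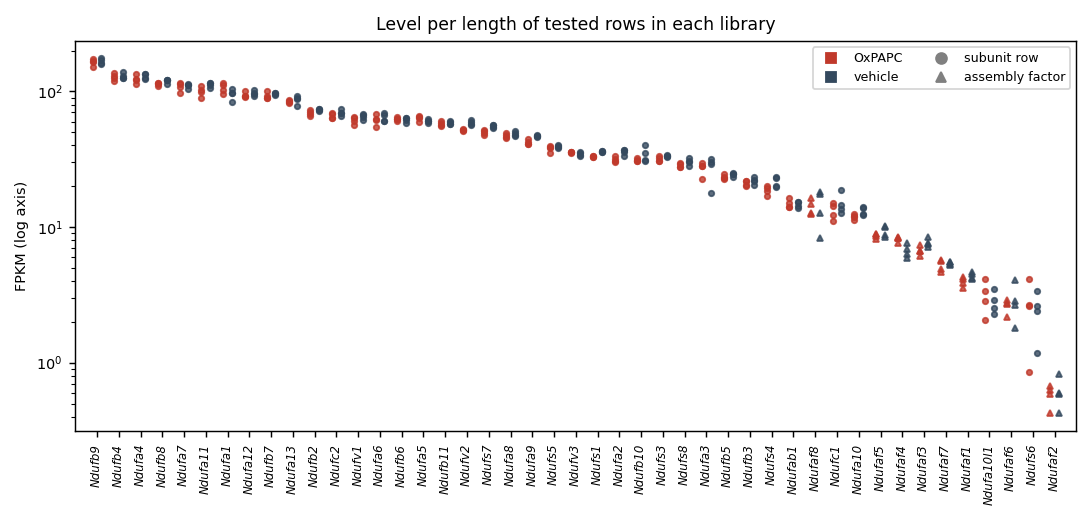
FPKM of 45 tested members in each library on a log axis, ordered by mean level, with circles for subunit rows and triangles for assembly factors, and OxPAPC drawn left of vehicle for each gene. Subunits fill the high end, assembly factors begin at Ndufaf8 with 14.1 FPKM, and within most genes the libraries of the groups overlap.

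The summed level of all 41 subunit rows was 1795, 1807, 1792 and 1735 CPM in OxPAPC libraries and 1870, 1788, 1881 and 1791 CPM in vehicle libraries. These rows include Ndufa4 and leave out RefSeq's Ndufs6. The groups overlapped, since OxPAPC 2, 9 and 16 lay above vehicle 8 and 22. The 8 assembly factors summed to 75.1, 79.0, 76.8 and 75.2 CPM in OxPAPC libraries and to 83.3, 72.8, 76.8 and 73.4 CPM in vehicle libraries. Here vehicle 1 was the highest and vehicle 8 the lowest of all 8 libraries, with the OxPAPC libraries between them.

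The proton-pumping core subunits of mitochondrial DNA, ND1, ND2, ND3, ND4, ND4L, ND5 and ND6, gave 0 calls of 7. Of all tested genes, 34.3% were called. Of the 7, 1 was at an unadjusted p under 0.05. All 7 log2 fold changes were below 0, between -0.30 and -0.09 with a median of -0.18. They were below 0 in each of the 19 alternatives too, which reuse the same libraries and are not independent evidence. Without vehicle 8 the median was -0.11, with estimates between -0.19 and -0.03. ND1, the subunit next to the quinone site, had 397, 405, 427 and 391 CPM in OxPAPC libraries and 480, 580, 452 and 453 CPM in vehicle libraries. The groups did not overlap, and vehicle 8 was far above the other 3 of its group. The log2 fold change was -0.28 ± 0.09 (SE) with an adjusted p of 0.0517, and it passed in 10 of the 19 alternatives. The 7 together summed to 2520, 2600, 2767 and 2473 CPM in OxPAPC libraries and to 2946, 3533, 2672 and 2845 CPM in vehicle libraries. OxPAPC 16 was above vehicle 15, so these sums overlapped, and vehicle 8 was again the highest.

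**Figure D5:**
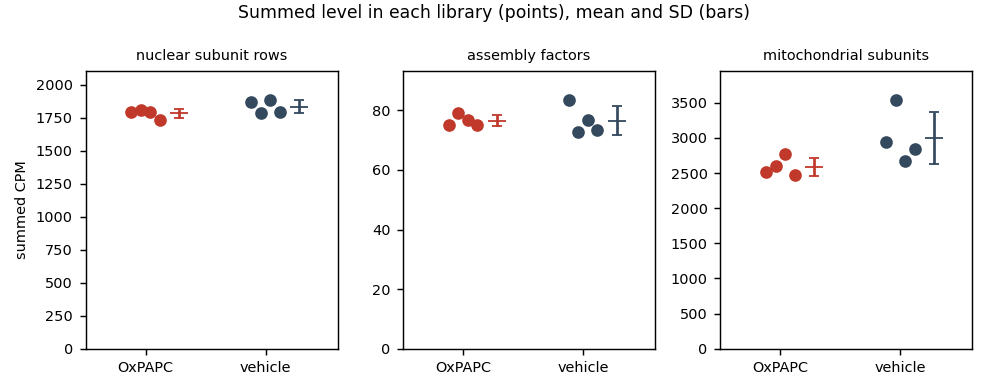
Summed CPM of the nuclear subunit rows, the assembly factors and the mitochondrially encoded subunits in each library, OxPAPC left and vehicle right, with axes from 0 and bars for mean and SD of 4 libraries. In all 3 panels the libraries of the groups overlap, and vehicle 8, at 3533 CPM, tops the mitochondrial panel.

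Assembly factors that do not carry the Ndufaf name gave 0 calls of 10, against 34.3% of all tested genes. None of the 10 was at an unadjusted p under 0.05. They were Acad9, Ecsit, Tmem126b, Timmdc1, Foxred1, Nubpl, Tmem186, Tmem70, Dmac1 and Dmac2. Acad9, an acyl-CoA dehydrogenase relative that works with Ndufaf1, averaged 27.1 ± 1.94 CPM in OxPAPC libraries and 27.4 ± 0.879 CPM in vehicle libraries. Foxred1 had the lowest estimate, -0.17 ± 0.10 (SE) with an adjusted p of 0.218. The median of the 10 was -0.035, against -0.061 for the Ndufaf genes and -0.037 for the subunit rows.

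In the other respiratory complexes, 9 of 45 tested nuclear genes passed the test, or 20%, with 3 higher and 6 lower. The share was 6.52% for the complex I members and 34.3% for all tested genes. Complexes III and V, at 33.3% and 29.4%, did not exceed the share of all tested genes. Complex II had 0 calls of 4, with 1 at an unadjusted p under 0.05. In complex III, 3 of 9 fell, with log2 fold changes of -0.14 for Cyc1, -0.13 for Uqcrc2 and -0.12 for Uqcrc1, and in complex IV 1 of 15 rose, Cox4i1 by 0.10. Complex V had 2 of 17 higher and 3 lower, among them Atp5if1, the inhibitor of the ATP synthase, which rose by 0.53 ± 0.06 (SE; adjusted p 1.36e-07). The larger shift of Atp5if1 stood beside Atp5pd at 0.20 and the catalytic-head subunit Atp5f1a at -0.14. Mitochondrial ribosomal proteins had 4 of 73 higher and 6 lower, with Mrps14 at -0.30, Mrpl49 at 0.27 and Mrps18b at 0.22. Whether complex I differs from these lists was not tested.

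Counting could blur a few members. The labels name directional as well as non-directional library construction, and it is not known whether strand was used. The spans of Ndufs3, Ndufb5, Ndufa2, Ndufaf3, Ndufaf5 and the untested Ndufa4l2 overlap a gene of the opposite strand with at least 1000 counts, and reads there may not have been told apart. Ndufv2, Ndufa9 and Ndufaf4 overlap no other gene of the table. Outside the name rule 67 rows are described as complex I proteins, of which 46 had no count. Without RefSeq's Ndufs6 they drew 1202 counts, or 0.446% of the 269753 counts of the members. The share is larger for single genes. Other rows described as the same protein drew 541 counts for Ndufs5, against 3721 of its own, and 452 for Ndufb4, against 8390.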

How the data were processed

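Raw read counts and, in a second table, FPKM values were deposited by the authors, each for 40994 genes in 8 libraries. The tools named in the submitters' processing notes are featureCounts 1.5.0-p3, HISAT2 2.0.5 and StringTie 1.3.3b. A genome build was not given in the sources used here, and coordinates without a build are those of the deposited table, and GRCr8 was used for RefSeq names and promoters only.

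The counts were tested with edgeR 4.0.16 in R 4.3.3, using filterByExpr (minimum of 10 counts in 4 libraries and 15 in total), TMM scaling with factors of 0.976 to 1.03, the robust quasi-likelihood F test and Benjamini-Hochberg adjustment over 13206 genes. Each SE was the size of the log2 fold change over the root of its F. CPM are counts per M counts of the TMM-scaled library, given as mean ± SD over 4 libraries. Counting error is not separated from other error, since no molecular identifiers were recorded. The biological coefficient of variation was 5.79%. Chi-square per degree of freedom over genes with at least 20 counts was 2.23 to 9.50 within groups and 23.1 to 35.0 across them, so each library counted as 1 replicate. The procedure was tested on simulated counts in which a small share of genes was changed, by folds larger than that of any subunit row. How it handles smaller changes was not tested. Alternatives were RLE, upper-quartile, library-total and length-range scaling (TMM from 10877 genes of 351 to 8396 bases), DESeq2 1.42.0, limma-voom with limma 3.58.1, other filters, limma on log2(FPKM + 1) and log2(FPKM + 0.1), and omission of each library. The members and lists were chosen with earlier results of these data known. Named with values were members past the threshold or nearest to it, core subunits, assembly factors, the most and least abundant subunit rows, untested members and up to 3 called genes of each other list, and the rest were described by role. Coa1, an assembly factor, matched no row by that symbol. One tested member is counted in the totals and is not reported here.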

Additional observations from a re-analysis of the deposited data

Results flagged for a closer look

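Of 98 groups of 4 libraries examined over the members and related genes, 3 held a library far from the rest, where chance gives about 1 in 20. Ndufa7 was low in vehicle 8, at 49.4 CPM against 52.5 to 53.1 CPM in the other vehicle libraries. Ndufa12 was high in OxPAPC 23, at 55.4 CPM against 50.8 to 51.3 CPM in the other OxPAPC libraries. Ndufa3 was low in vehicle 8, at 7.04 CPM against 11.5 to 12.4 CPM in the other vehicle libraries. None of these 3 genes passed the test.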

How the results depend on the processing

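No paired analysis was made, because the groups share no replicate number and no label ties an OxPAPC library to a vehicle library. Each OxPAPC number follows a vehicle number directly, but no label says whether adjacent numbers mark a set. Among all genes, 1829 rose and 2723 fell with upper-quartile scaling, 1801 and 2372 on log2(FPKM + 1), 1809 and 2365 on log2(FPKM + 0.1) and 1488 and 1885 on log2(FPKM + 1) unfiltered, against 2369 and 2164 in the main test. Omitting single libraries gave 2048 to 2323 higher and 1868 to 2080 lower. The members that rose numbered 2 without a filter, where Ndufa1 joined Ndufaf4, and 1 to 2 with single libraries omitted. The members that fell numbered 4 with RLE factors, 9 with upper-quartile factors, 5 with library totals, 5 with length-range scaling, 1 with DESeq2, 6 without a filter, 6 on log2(FPKM + 1), 6 on log2(FPKM + 0.1) and 5 on log2(FPKM + 1) unfiltered. With single libraries omitted they numbered 0 (without vehicle 1) to 5 (without vehicle 22), and 1 without OxPAPC 16 or vehicle 15. Of the mitochondrial subunits and other assembly factors, 1 fell with RLE, upper-quartile or library-total scaling, with the filter of 1 CPM in 4 libraries and on unfiltered log2(FPKM + 1), and 2 fell with DESeq2, log2(FPKM + 1) and log2(FPKM + 0.1), and 0 to 2 with single libraries omitted (2 without vehicle 8, 1 without vehicle 15). In the comparison lists 7 rose and 12 fell; 4 rose with upper-quartile scaling, without a filter and on unfiltered log2(FPKM + 1), while 20 fell with upper-quartile scaling, 23 on log2(FPKM + 1) and 24 on log2(FPKM + 0.1), and single omissions gave 5 to 12 (without OxPAPC 23) higher and 9 to 13 lower. The subunit median moved to -0.0742 with upper-quartile scaling, where the median of all genes was -0.0353, and was -0.05 to -0.02 with single libraries omitted. The assembly factor median was -0.09 to -0.03 there. The range of estimates was followed for the members named by threshold, role or abundance. Among these, estimates that changed sign belonged to members that passed under none of the 19 alternatives. Further subunit rows changed sign, since 31 of 38 were below 0 with upper-quartile scaling, against 27 in the main test. Ndufaf8 was -0.0209 with upper-quartile scaling and -0.164 to 0.157 with single omissions. Single omissions gave -0.0812 to 0.0116 for Ndufaf7, -0.236 to 0.144 for Ndufaf6, -0.178 to 0.121 for Ndufaf2 and -0.224 to 0.413 for the row named Ndufs6, which was -0.0306 with limma-voom. Ndufb9 was -0.0295 with upper-quartile scaling, -0.00495 with library totals, -0.00669 without a filter, -0.0193 on log2(FPKM + 1) with and without the filter, -0.0194 on log2(FPKM + 0.1) and -0.0237 to 0.0493 with single omissions. The cause of these moves was not tested. With 4 libraries a group, differences of the size seen in most subunits lie near their own error, and low members such as Ndufaf2, Ndufaf6 and Ndufaf8 could show only large changes.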
